A study of Gallus gallus with 6 samples.

Results

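The contractile unit of striated muscle, the sarcomere, is built from thick filaments of myosin and thin filaments of actin, tropomyosin and troponin. Thin filaments are cross-linked at the Z-disc by alpha-actinin, and thick filaments at the M-band by the myomesins. Most of these proteins are encoded by families in which some members are used in striated muscle and others in smooth muscle or in the cytoskeleton of every cell. In the limb, striated muscle arises from precursor cells that migrate in from the somites, and these cells switch on sarcomere genes only after they have stopped dividing and begun to differentiate.

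The genes described here are the myosin heavy and light chains, troponins, tropomyosins, myomesins, myosin-binding proteins, myozenins, alpha-actinins, tropomodulins and leiomodins, together with ACTC1, ACTA1, ACTA2, LDB3 and DES, chosen by gene name. They number 53 of the 21062 genes with a normalised value, and all 53 are annotated as protein coding. By the role of their products they fall into 35 sarcomeric genes, 4 smooth muscle genes (MYH11, ACTA2, LMOD1 and MYL9), 9 non-muscle genes (MYH9, MYH10, MYL6, MYL12A, ACTN1, ACTN4, TMOD2, TMOD3 and TPM4) and 4 genes of mixed or unsettled use (TPM1, TPM3, DES and MYL10). The remaining gene, TNNI3K, encodes a kinase that shares only the letters of its name with the troponins. The giant proteins TTN and NEB and the Z-disc cap TCAP, which the names also cover, were not analysed here.

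Explants came from a posterior piece of the wing bud of wild type (WT) chick embryos at stage HH20. They were embedded in Matrigel and kept in culture for 48 h, either with 5 µM of SU5402, an inhibitor of Fgf receptors that was added at the start, or with its solvent DMSO alone. The study describes 3 replicate experiments, and each treatment has 3 RNA-sequencing libraries, each made from a pool of 10 to 12 whole explants. The labels give the cell type as mesenchyme, but the explants also held RNA of endothelium, ectoderm, cartilage and blood, as marker genes given below show. The comparison asks how inhibition of Fgf signalling for 48 h changed the level of each gene.

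The DMSO libraries held 25849833 to 44261768 reads on genes (median 31687741) and the SU5402 libraries 29390751 to 37373688 (median 36067053). Levels are given as normalised read counts, the reads of a gene divided by the size factor of its library. Since these depend on gene length, levels of different genes are compared only as FPKM, which are fragments scaled by gene length and by library size. Fold changes were fitted by limma on log2(normalised count + 1) over the 16324 genes with at least 10 normalised counts in at least 3 libraries. At low counts this fit can differ from a count test either way. The log2 fold change of MYH1F was 2.57 here and 2.04 in edgeR, and that of LMOD3 was 0.73 and 0.88. A gene is said to have risen or fallen when its adjusted p-value (Benjamini-Hochberg over all genes tested) is below 0.05 and its change exceeds 2-fold. Over all genes tested, 10.8% passed both thresholds (6.26% higher and 4.54% lower with SU5402), and the median log2 fold change was 0.01.

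Of the 35 sarcomeric genes, 16 rose with SU5402 and 1 fell, beside 6.26% and 4.54% of all genes tested. Of the 9 non-muscle genes 0 passed both thresholds. For so few genes this is close to the 10.8% of all genes tested, so it sets the non-muscle genes apart from the sarcomeric genes only. Of the other sarcomeric genes, 1 passed the adjusted p-value alone, 10 missed it and 7 were too low to be tested. Over all genes tested 30.4% passed the adjusted p-value, whatever the size of the change. The mean level was higher with SU5402 for 33 of the 35. Among the 28 tested the median log2 fold change was 1.79, with a range from -1.43 to 4.25. It is given as a description, since 10 of the 28 reached the minimum count in all SU5402 libraries but not in all DMSO libraries. All 3 SU5402 libraries lay above all 3 DMSO libraries for 27 of the 35 genes and below them for 1. The 27 include MYH1A, MYH1B, MYH1C, MYH1E, MYL2 and LMOD2, which had 0 DMSO reads and were not tested, so they have no counterpart in the shares that follow. Over all genes tested 24.2% were above without overlap and 25.6% below, 49.7% together. The count of 0 for the 9 non-muscle genes held in limma, edgeR and DESeq2, and their median log2 fold change was -0.12. Of the 9, 2 passed the adjusted p-value alone, MYH9 and MYH10 (limma adjusted p = 0.0069 and 0.014). Because each library is bulk RNA of whole explants, more muscle cells and more RNA per muscle cell cannot be told apart.

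**Figure D1:**
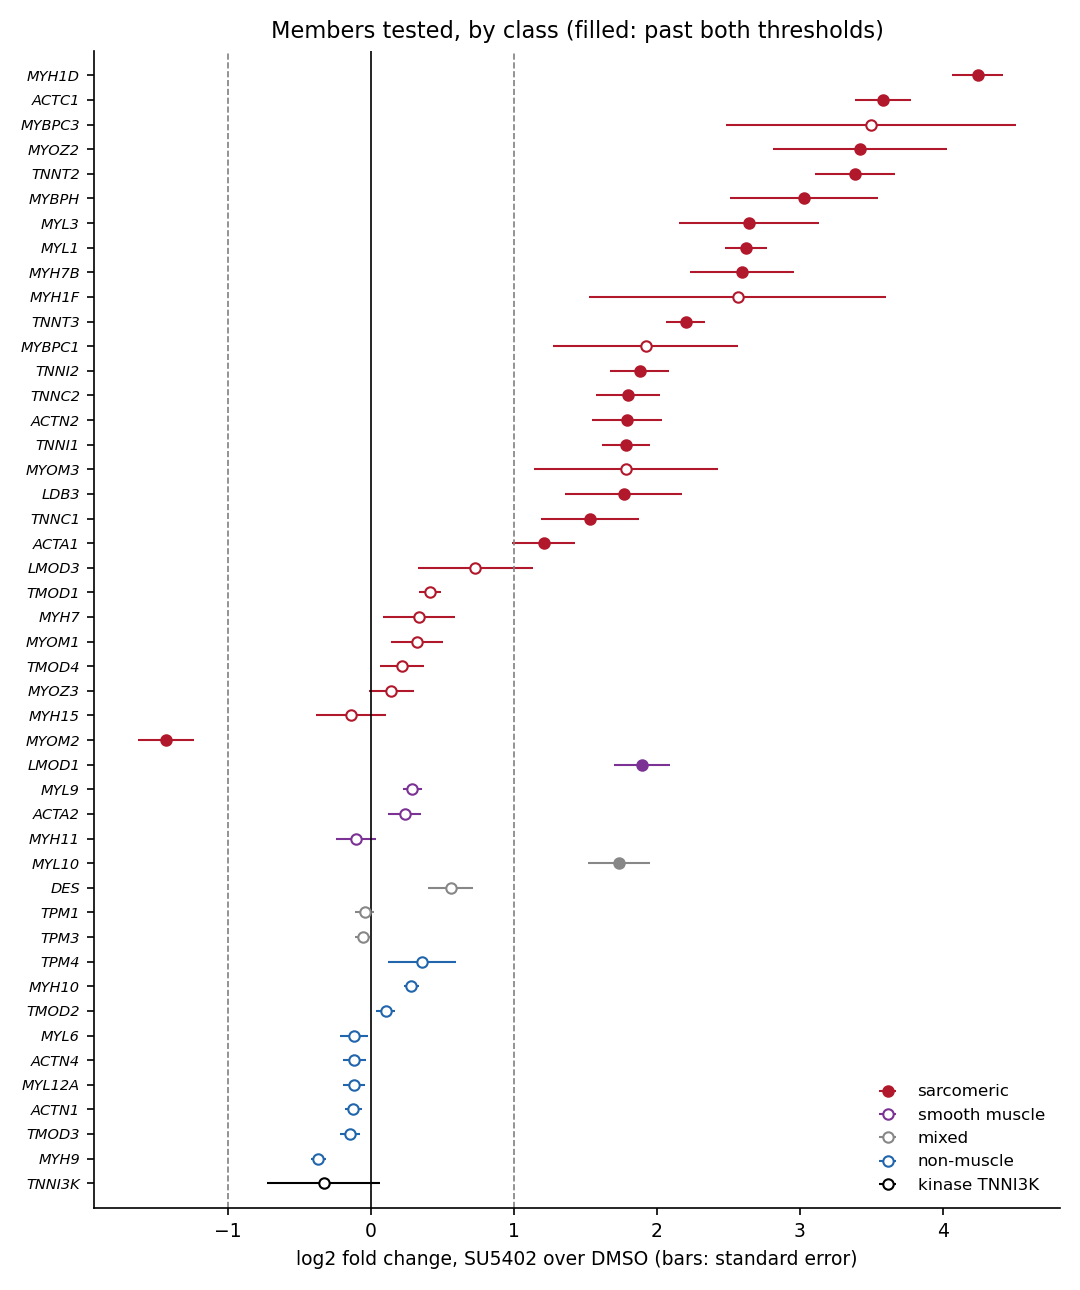
Fitted log2 fold change of the 46 tested genes (x axis, SU5402 over DMSO; bars are standard errors), grouped by the class of their product, with dashed lines at the 2-fold thresholds. Filled points passed both thresholds. The sarcomeric genes (red) reach 4.25 for MYH1D and -1.43 for MYOM2, while the 9 non-muscle genes (blue) lie between -0.37 and 0.36.

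The 2 sarcomeric actins, which form the thin filament itself, both rose. ACTC1, the cardiac alpha-actin that is also the main striated actin of early embryonic muscle (chromosome 5, 32480478 to 32485436, GRCg6a), had 338, 232 and 288 normalised counts in the 3 DMSO libraries and 3568, 2766 and 4005 in the SU5402 libraries. The highest DMSO library was thus well below the lowest SU5402 library. The log2 fold change was 3.59 (SE 0.20, limma adjusted p = 4.5e-04). ACTA1, the skeletal alpha-actin, had 213, 194 and 139 normalised counts with DMSO and 365, 377 and 523 with SU5402. These groups did not overlap either, and the change was smaller, 2.31-fold (log2 fold change 1.21, SE 0.22, limma adjusted p = 0.013).

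Troponins, the calcium switch of the thin filament, rose in 6 of 6 genes. Troponin T binds tropomyosin. TNNT2, the cardiac form that is also made in embryonic skeletal muscle (chromosome 26, 807502 to 813890), had 22.5, 22.2 and 23.6 normalised counts with DMSO and 339, 160.2 and 278 with SU5402. Its DMSO libraries were nearly equal, its SU5402 libraries were spread widely, and the groups were far apart (10.5-fold, log2 fold change 3.39, SE 0.28, limma adjusted p = 0.0013). TNNT3, the fast skeletal form, went from 33.1, 27.5 and 24.6 to 133, 120.0 and 149 (4.61-fold, log2 fold change 2.20, SE 0.14, limma adjusted p = 5.7e-04). The slow skeletal troponin T, annotated as sTnT and so outside the name rule, went from 135 ± 31.4 to 304 ± 19.9 normalised counts (SD, n = 3 each; log2 fold change 1.19, SE 0.18, limma adjusted p = 0.0072). All 3 troponin T genes thus rose, TNNT2 by the largest fitted factor.

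Troponin I is the inhibitory subunit. TNNI1, the slow form and the troponin with the highest FPKM, had 207, 163 and 183 normalised counts with DMSO and 668, 512 and 741 with SU5402, a 3.44-fold change. Its fast counterpart TNNI2 had 38.4, 35.9 and 45.0 with DMSO and 185, 112 and 158 with SU5402, a 3.68-fold change. Neither gene showed any overlap between treatments, and the limma adjusted p-values were 0.0018 and 0.0027. The calcium-binding subunit, troponin C, is encoded by TNNC1 in slow and cardiac muscle and by TNNC2 in fast muscle. TNNC2 had 159, 117 and 96.4 normalised counts with DMSO and 487, 353 and 448 with SU5402 (3.48-fold, limma adjusted p = 0.0040). TNNC1 had 88.7, 46.6 and 40.7 with DMSO and 208, 129.6 and 156 with SU5402 (2.89-fold, limma adjusted p = 0.025). The rise of TNNC1 missed the adjusted threshold when DMSO replicate 2, DMSO replicate 3, SU5402 replicate 1 or SU5402 replicate 3 was left out (limma adjusted p = 0.077, 0.065, 0.070 and 0.067), with the log2 fold change between 1.31 and 1.87 over all 6 omissions.

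Within each troponin subunit a cardiac or slow form was compared with the fast form by the ratio of their FPKM. For troponin T the cardiac form TNNT2 was used. The slow form sTnT rose by less than the fast TNNT3 (log2 fold change 1.19 against 2.20), so the troponin T ratio below is not one of slow to fast. TNNT2 over TNNT3 went from 1.15 ± 0.20 to 2.71 ± 0.86 (SD, n = 3 each), with no overlap between treatments (exact permutation test, two-sided p = 0.1, the smallest that 3 against 3 allows). TNNI1 over TNNI2 was 3.94 ± 0.56 with DMSO and 3.63 ± 0.50 with SU5402, and TNNC1 over TNNC2 was 0.233 ± 0.044 and 0.194 ± 0.021. The latter 2 ratios overlapped between treatments (exact permutation tests, two-sided p = 0.6 and 0.3). Over the 9 ratios of related genes compared, 6 reached 0.1, which becomes 0.15 after Benjamini-Hochberg adjustment, so these tests cannot pass a threshold of 0.05.

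**Figure D2:**
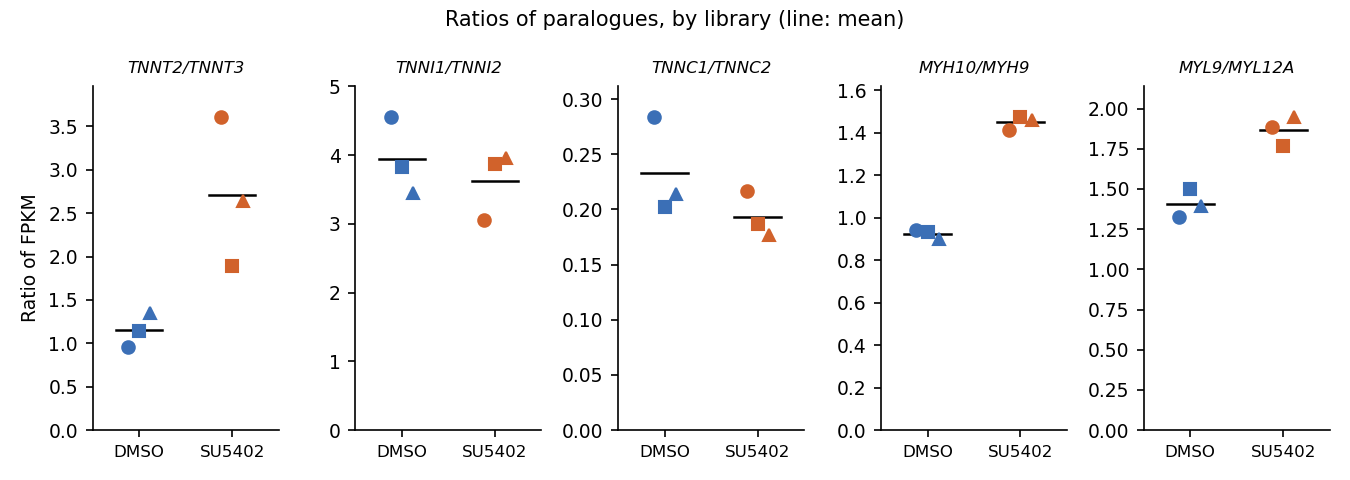
Ratio of the FPKM values of 5 pairs of related genes in each library (y axis, starting at 0; circles, squares and triangles are replicates 1, 2 and 3, lines are means). TNNT2/TNNT3, MYH10/MYH9 and MYL9/MYL12A are higher in every SU5402 library than in any DMSO library, while TNNI1/TNNI2 and TNNC1/TNNC2 overlap.

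TNNI1 and TNNT2 lie 13.3 kb apart on chromosome 26 with 1 annotated gene between them, and TNNT3 and TNNI2 lie 54.3 kb apart on chromosome 5, also with 1 gene between. Both neighbours of each pair rose.

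Tropomyosins, which run along the actin filament and cover its myosin-binding sites, passed neither threshold in any of the 3 genes covered by the rule. TPM1 and TPM3 are spliced into muscle and non-muscle products that a value per gene does not separate. TPM1, the tropomyosin with the highest FPKM, had 14225, 13104 and 12835 normalised counts with DMSO and 13316, 12647 and 12984 with SU5402, and the treatments overlapped (log2 fold change -0.04, SE 0.06, limma adjusted p = 0.65). TPM3 changed by -0.06 on the log2 scale (SE 0.05, limma adjusted p = 0.47). The ratio of their FPKM was 1.58 ± 0.10 with DMSO and 1.60 ± 0.04 with SU5402 (SD, n = 3 each). TPM4, classed here with the non-muscle genes although its products were not told apart, had 261, 176 and 137 normalised counts with DMSO. With SU5402 it had 226, 238 and 248 (log2 fold change 0.36, SE 0.24, limma adjusted p = 0.31). The gene annotated as BRT-1, which the files describe as tropomyosin 2, lay outside the name rule and had means of 7643 and 6132 normalised counts (log2 fold change -0.32, limma adjusted p = 0.070). Its SU5402 libraries all lay below its DMSO libraries. It passed the adjusted threshold alone in edgeR (adjusted p = 0.0047) and DESeq2 (1.8e-04), at 1.25-fold lower in limma.

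Myosin heavy chains, the motors of the thick filament, gave the largest single change. MYH1D belongs to a cluster of skeletal heavy chain genes on chromosome 18 (376311 to 398842, minus strand), and had 39.7, 48.9 and 31.1 normalised counts with DMSO and 806, 683 and 805 with SU5402. Each group was tight and they lay 19.0-fold apart (log2 fold change 4.25, SE 0.18, limma adjusted p = 2.4e-04). The other genes of the cluster were far lower. MYH1F, 8.43 kb from MYH1D, had 0, 7.65 and 12.9 normalised counts with DMSO and 25.7, 20.1 and 43.0 with SU5402, which did not overlap but missed the adjusted threshold in limma (log2 fold change 2.57, SE 1.04, adjusted p = 0.12). With edgeR and DESeq2 on the recovered reads MYH1F passed both thresholds (adjusted p = 0.041 and 0.023).

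No read was counted on MYH1A, MYH1B, MYH1C or MYH1E in any DMSO library. With SU5402 replicates 1, 2 and 3, MYH1A had 4, 1 and 34 reads, MYH1B 12, 5 and 15, MYH1C 11, 3 and 7, and MYH1E 3, 2 and 3. Setting each DMSO library at 3 reads gives a mean at least 3.84-fold higher with SU5402 for MYH1A, 3.33-fold for MYH1B and 2.25-fold for MYH1C, bounds that cover counting error only. Without SU5402 replicate 3 the ratio for MYH1A was 0.847, and without SU5402 replicate 1 that for MYH1C was 1.43, so both rest on those libraries. MYH1E was at or below 3 reads in every library. Genes of this cluster are close in sequence, so how reads were split between them is uncertain. A further gene, described in the files as MYH1G but without a symbol, had means of 6.93 and 10.2 normalised counts (limma adjusted p = 0.51).

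Outside the cluster the heavy chains were divided. MYH7B, a slow-tonic heavy chain, had 5.30, 15.3 and 9.64 normalised counts with DMSO and 64.9, 51.7 and 68.6 with SU5402, a rise of 6.05-fold without overlap (log2 fold change 2.60, SE 0.36, limma adjusted p = 0.0058). MYH15, which encodes a ventricular heavy chain in the chick, and MYH7, of slow and cardiac type, did not pass either threshold. MYH15 had 283, 501 and 469 normalised counts with DMSO and 356, 329 and 424 with SU5402 (log2 fold change -0.14, SE 0.25, limma adjusted p = 0.70). MYH7 had means of 77.3 ± 27.9 and 94.6 ± 7.79 (SD, n = 3 each; log2 fold change 0.34, limma adjusted p = 0.36). Per unit length, MYH1D stood at 0.10 ± 0.04 of the level of MYH15 with DMSO and at 2.06 ± 0.18 times that level with SU5402, so the sarcomeric heavy chain with the highest mean FPKM was MYH15 in the first and MYH1D in the second.

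The light chains clasp the neck of the myosin head. MYL1, the fast alkali light chain, had 53.0, 56.6 and 53.5 normalised counts with DMSO and 404, 276 and 355 with SU5402 (6.17-fold, log2 fold change 2.63, SE 0.15, limma adjusted p = 4.5e-04). MYL3, the slow and ventricular alkali light chain, went from 2.65, 3.06 and 10.7 to 28.0, 32.4 and 43.0 (6.26-fold, log2 fold change 2.65, SE 0.49, limma adjusted p = 0.014). The fitted changes of the 2 genes lay within their standard errors of each other. MYL2, the slow and ventricular regulatory light chain, had 0 reads in every DMSO library and 30, 4 and 9 in the SU5402 libraries, a mean at least 4.78-fold higher against 3 reads per DMSO library and 1.86-fold without SU5402 replicate 1. MYL10, a light chain whose use in chick muscle is not settled, had 46.3, 41.3 and 53.5 normalised counts with DMSO and 216, 133 and 138 with SU5402, and rose 3.33-fold (log2 fold change 1.74, SE 0.22, limma adjusted p = 0.0042).

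Among the proteins that bind myosin or hold thick filaments in register, responses went both ways. MYBPH, a myosin-binding protein of skeletal muscle, had 29.1, 9.94 and 37.5 normalised counts with DMSO and 180.2, 149 and 254 with SU5402 (8.17-fold, log2 fold change 3.03, SE 0.52, limma adjusted p = 0.011). MYOM2, the M-protein of the M-band (chromosome 3, 90705369 to 90802601), moved the other way and was the only one of the tested sarcomeric genes to fall. It had 335, 287 and 469 normalised counts with DMSO and 129.8, 123 and 142 with SU5402, a level 2.70-fold lower (log2 fold change -1.43, SE 0.19, limma adjusted p = 0.0053). Every SU5402 library was below every DMSO library, and the log2 fold change stayed between -1.59 and -1.23 when any one library was left out.

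Its paralogue MYOM1, myomesin, passed neither threshold, with means of 113 ± 27.0 and 139.6 ± 5.95 normalised counts (SD, n = 3 each; log2 fold change 0.32, limma adjusted p = 0.23). MYBPC3, the cardiac myosin-binding protein C, had 11.9, 9.18 and 0 with DMSO and 59.3, 53.4 and 56.7 with SU5402 but a limma adjusted p of 0.052. MYBPC1, the slow form, and MYOM3 had log2 fold changes of 1.92 and 1.78 and limma adjusted p-values of 0.079 and 0.093. Without DMSO replicate 3 all 3 genes passed both thresholds, with log2 fold changes of 2.32 for MYBPC3, 2.66 for MYBPC1 and 2.43 for MYOM3. The test also decided the call. With all 6 libraries MYBPC3 passed in edgeR (adjusted p = 0.0027) and DESeq2 (8.4e-06), MYOM3 in DESeq2 (0.031), and all 3 in limma with an intensity trend (0.0043 for MYBPC3, 0.048 for MYBPC1 and 0.030 for MYOM3).

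At the Z-disc, where thin filaments of neighbouring sarcomeres meet, 3 of 5 genes rose. ACTN2, the sarcomeric alpha-actinin, had 169, 161 and 101 normalised counts with DMSO and 594, 459 and 424 with SU5402 (3.46-fold, log2 fold change 1.79, SE 0.25, limma adjusted p = 0.0056). MYOZ2, a myozenin of slow and cardiac muscle that binds calcineurin, went from 9.27, 2.29 and 16.1 to 88.4, 84.1 and 92.3 (10.7-fold, log2 fold change 3.42, SE 0.61, limma adjusted p = 0.012). Its SU5402 libraries were close together, and the spread lay in the few reads of the DMSO libraries. LDB3, a PDZ and LIM domain protein that binds alpha-actinin, had 7.95, 6.12 and 2.14 normalised counts with DMSO and 22.4, 18.4 and 16.5 with SU5402 (3.41-fold, log2 fold change 1.77, SE 0.41, limma adjusted p = 0.028). LDB3 rests on 2 to 21 reads per library, and without DMSO replicate 2 it missed the adjusted threshold (log2 fold change 1.91, limma adjusted p = 0.059), while without any one of the SU5402 libraries it fell below the minimum count. It also missed the adjusted threshold in DESeq2 on all 6 libraries (0.060).

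MYOZ3, the Z-disc gene with the highest FPKM, had 197, 215 and 283 normalised counts with DMSO and 228, 271 and 261 with SU5402, which overlapped (log2 fold change 0.14, SE 0.16, limma adjusted p = 0.53). MYOZ1, a fast-fibre myozenin, had 0 reads in all DMSO libraries and 0, 5 and 7 with SU5402, so the treatments overlapped. Desmin (DES), the intermediate filament that links Z-discs in all muscle types, had 364, 326 and 315 normalised counts with DMSO and 519, 398 and 579.6 with SU5402. It passed the adjusted threshold alone, at 1.47-fold (log2 fold change 0.56, SE 0.16, limma adjusted p = 0.047).

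The pointed end of the thin filament, where tropomodulins cap it and leiomodins lengthen it, had the smallest median log2 fold change of the sarcomeric groups, 0.41. Of its 4 genes, 3 were tested and 1 passed the adjusted threshold, at less than 2-fold. TMOD1 had 557, 625 and 632 normalised counts with DMSO and 762, 802 and 854 with SU5402, an increase of 1.33-fold without overlap (log2 fold change 0.41, SE 0.08, limma adjusted p = 0.016). TMOD4, the skeletal tropomodulin, and LMOD3, the skeletal leiomodin, had log2 fold changes of 0.22 and 0.73 (limma adjusted p = 0.33 and 0.23). LMOD2, the cardiac leiomodin, had 0 reads in the DMSO libraries and 24, 6 and 3 in the SU5402 libraries, a mean at least 3.68-fold higher, which falls to 1.27-fold without SU5402 replicate 1. The cytoskeletal TMOD2 and TMOD3, 4.24 kb apart on chromosome 10, had log2 fold changes of 0.10 and -0.14. TMOD3, the tropomodulin with the highest FPKM, had 4125, 4145 and 4115 normalised counts with DMSO and 3924, 3863 and 3442 with SU5402 (limma adjusted p = 0.18).

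**Figure D3:**
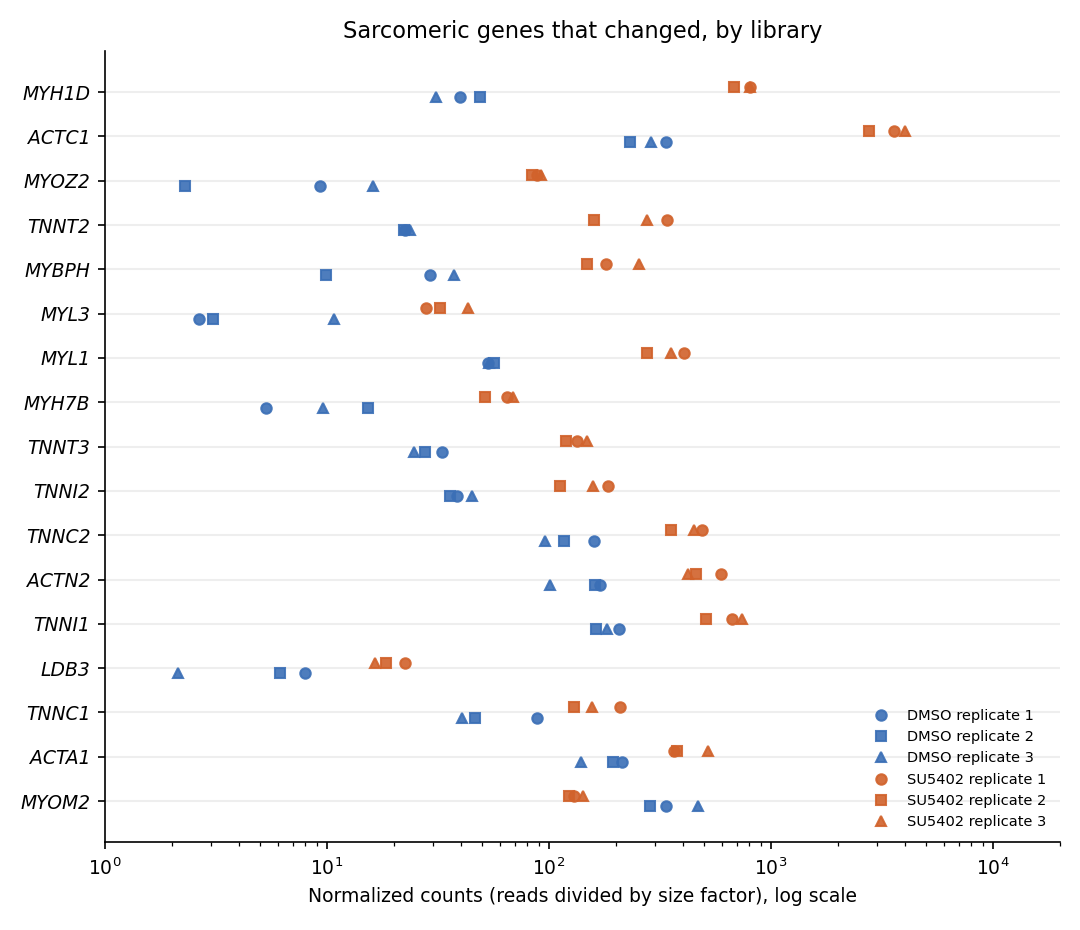
Normalised counts (x axis, log scale) of the 17 sarcomeric genes that passed both thresholds, 1 symbol per library, with DMSO in blue and SU5402 in orange. The 2 colours do not overlap for any of the 17 genes, and MYOM2 is the one gene with the SU5402 libraries to the left, at 123 to 142 against 287 to 469.

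Genes that rose were found among both fibre types. Of 13 genes of cardiac or slow type, 11 were tested and 7 rose (ACTC1, MYH7B, MYL3, TNNT2, TNNI1, TNNC1 and MYOZ2). Of 13 of fast type, 8 were tested and 6 rose (MYH1D, MYL1, TNNT3, TNNI2, TNNC2 and MYBPH). Of those tested, 5 of the cardiac or slow type and 2 of the fast type reached the minimum count in all SU5402 libraries but not in all DMSO libraries. Among the 16 sarcomeric genes that rose, SU5402 replicate 2 was the lowest of the SU5402 libraries in 12 and the highest in 0. Replicates 1 and 3 were each the highest in 8. Leaving out SU5402 replicate 2 gave a median log2 fold change over the sarcomeric genes of 1.93.

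The 4 genes of smooth muscle did not move together. LMOD1, the smooth muscle leiomodin (chromosome 26, 1123454 to 1132975), had 208, 137 and 153 normalised counts with DMSO and 636, 515 and 698 with SU5402 and rose 3.73-fold (log2 fold change 1.90, SE 0.20, limma adjusted p = 0.0023). MYL9, the smooth muscle regulatory light chain, had 2456, 2347 and 2338 with DMSO and 3015, 2712 and 3022 with SU5402, an increase of 1.22-fold that passed the adjusted threshold alone (log2 fold change 0.29, SE 0.07, limma adjusted p = 0.028). ACTA2, the smooth muscle alpha-actin, and MYH11, the smooth muscle heavy chain, passed neither threshold, with log2 fold changes of 0.24 and -0.10 (limma adjusted p = 0.18 and 0.62). In a list of 9 other smooth muscle genes, 8 were tested and 1 passed both thresholds. For so few genes this is close to the 10.8% of all genes tested. That gene, the enteric actin ACTG2, fell (log2 fold change -2.69, limma adjusted p = 0.0017). Whatever the size of the change, 5 of the 8 passed the adjusted p-value, beside 30.4% of all genes tested. By the adjusted p-value alone CALD1 (log2 fold change -0.93) and SMTN (-0.78) were lower, and MYLK (0.72) and SYNM (0.65) higher. Their limma adjusted p-values were 0.0016, 0.0017, 0.0016 and 0.0071. LMOD1 lies 102.8 kb from MYBPH, with 8 annotated genes between them.

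Non-muscle myosin II drives contraction of the cytoskeleton in every cell, and its 2 heavy chains moved apart by small amounts. MYH10 had 25193, 25951 and 24654 normalised counts with DMSO and 30874, 31096 and 30204 with SU5402 (1.22-fold higher, log2 fold change 0.28, SE 0.05, limma adjusted p = 0.014). MYH9 had 21619, 22505 and 22180.4 with DMSO and 17663, 17059 and 16704 with SU5402 (1.29-fold lower, log2 fold change -0.37, SE 0.05, limma adjusted p = 0.0069). Both changes were larger than the spread between replicates and smaller than 2-fold. The FPKM of MYH10 was 0.924 ± 0.023 of that of MYH9 with DMSO and 1.45 ± 0.03 times that of MYH9 with SU5402 (SD, n = 3 each; exact permutation test, two-sided p = 0.1, the smallest possible).

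The other non-muscle genes passed neither threshold. MYL6, the essential light chain of non-muscle myosin and the light chain with the highest FPKM, had 18687, 18413 and 19516 normalised counts with DMSO and 17477, 15495 and 19490.1 with SU5402 (limma adjusted p = 0.42). ACTN1, a cytoskeletal alpha-actinin, had 9059, 9101 and 8612 with DMSO and 7884, 8409 and 8311 with SU5402 (log2 fold change -0.12, SE 0.06, limma adjusted p = 0.18). ACTN4 and the regulatory light chain MYL12A also had log2 fold changes of -0.12 (limma adjusted p = 0.33 and 0.32). A gene without a symbol that the files describe as MYL12B, outside the name rule, had a log2 fold change of 0.02 (limma adjusted p = 0.87). The kinase TNNI3K had 25.2, 21.4 and 19.3 normalised counts with DMSO and 8.95, 26.3 and 21.0 with SU5402, which overlapped (limma adjusted p = 0.57).

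Sarcomeric products remained a small part of each protein family. Their share of the summed FPKM of all myosin heavy chains here went from 1.48% ± 0.36 with DMSO to 3.58% ± 0.43 with SU5402 (SD, n = 3 each), and that of the light chains from 0.288% ± 0.015 to 1.97% ± 0.37. The share of the alpha-actinins went from 0.928% ± 0.234 to 3.39% ± 0.72. That of the actins went from 0.148% ± 0.019 to 1.28% ± 0.20, counting ACTA2, ACTG2 and the cytoplasmic ACTB and ACTG1. In all 4 families every SU5402 library was above every DMSO library. Non-muscle genes still held 95.2% of the heavy chain FPKM, 81.0% of the light chain FPKM and 96.6% of the alpha-actinin FPKM with SU5402.

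**Figure D4:**
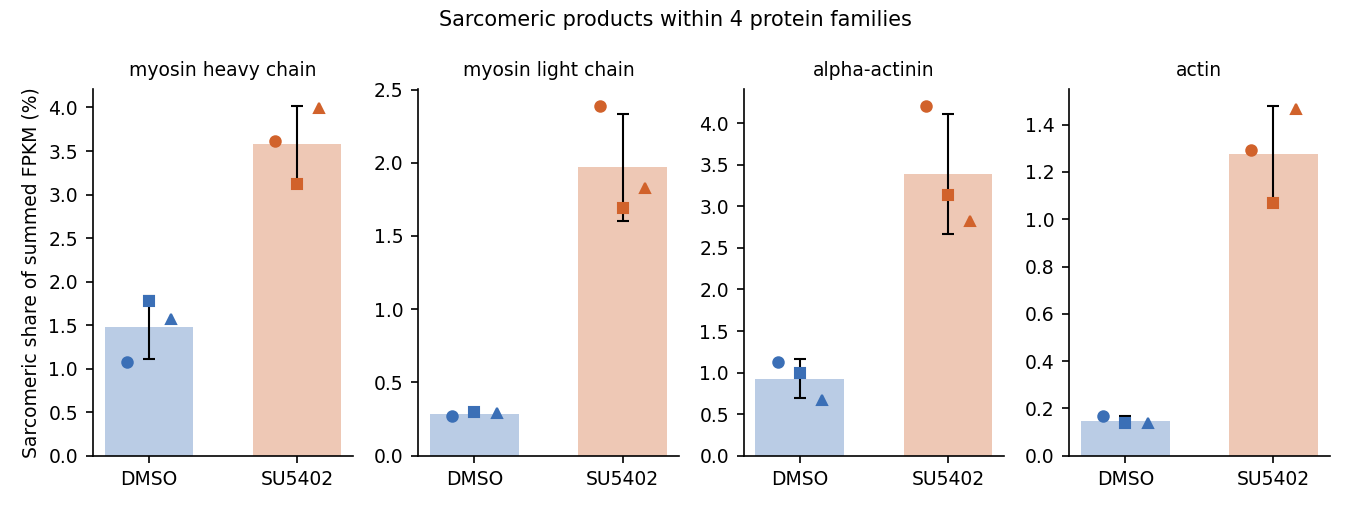
Share of the summed FPKM of each protein family that came from its sarcomeric genes (y axis, percent, starting at 0 with its own scale in each panel). Bars are means, error bars are SD, and circles, squares and triangles are replicates 1, 2 and 3. The mean share rises from 1.48% to 3.58% for myosin heavy chains, 0.288% to 1.97% for light chains, 0.928% to 3.39% for alpha-actinins and 0.148% to 1.28% for actins.

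The genes that drive muscle commitment rose in the same libraries, and the sarcomeric genes were set against one of them. MYOD1, a transcription factor of committed myoblasts, went from a mean of 268 to 1188 normalised counts (log2 fold change 2.14, SE 0.13, limma adjusted p = 5.0e-04). The ratio to MYOD1 was taken in each library as a description. Other regulators rose by other amounts, MYOG by a log2 fold change of 3.76, so the counts below hold for MYOD1 only. Of the 16 sarcomeric genes that rose, 5 had a higher ratio in every SU5402 library than in any DMSO library. They were MYH1D (a difference of 2.10 in mean log2 ratio), ACTC1 (1.44), MYOZ2 (1.28), TNNT2 (1.25) and MYL1 (0.48). A lower ratio without overlap was found for 4 genes, ACTA1 (-0.93), TNNC1 (-0.61), TNNI1 (-0.36) and TNNC2 (-0.34). The ratio of the other 7 overlapped between treatments. These counts cover only genes already called higher. No share over all genes tested was computed for these ratios, so the counts here and below only describe the genes. Of the tested sarcomeric genes that did not rise, MYOZ3, MYH15, MYH7, MYOM1, MYOM2, LMOD3, TMOD1 and TMOD4 had a lower ratio without overlap. Their differences ran from -3.57 for MYOM2 to -1.41 for LMOD3. A gene that did not change has a lower ratio because MYOD1 rose. The ratio of MYBPC3 was higher without overlap (1.36), and those of MYH1F, MYBPC1 and MYOM3 overlapped.

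**Figure D5:**
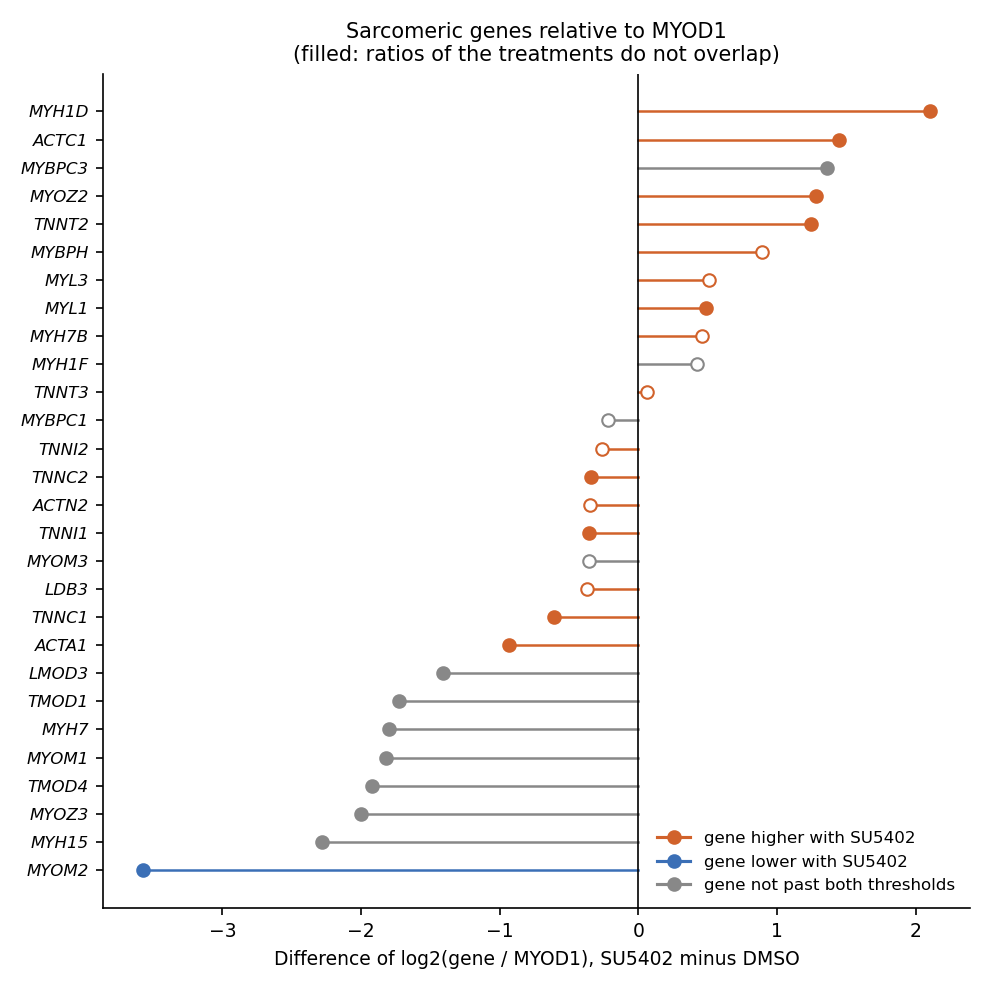
Difference between treatments in log2 of the ratio of each tested sarcomeric gene to MYOD1 (x axis, SU5402 minus DMSO). Orange genes rose and the blue gene fell by both thresholds, and filled points mark ratios that do not overlap between treatments. MYH1D, at 2.10, lies farthest to the right and MYOM2 farthest to the left.

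Other muscle genes were read in lists set by role, beside the 6.26% of all genes tested that rose. Of 10 myogenic regulators 5 rose, MYOG (log2 fold change 3.76), PAX7 (2.53), MYF6 (2.41) and MYF5 (2.30) beside MYOD1. Of 20 other tested genes of the sarcomere and Z-disc 6 rose, led by PDLIM3 (3.65), XIRP1 (3.52), SYNPO2L (3.45) and TRIM55 (3.10). Of 9 tested chaperones and assembly factors of myosin and the thin filament 4 rose, SMYD1 (4.77), UNC45B (2.56), KLHL40 (2.16) and CRYAB (1.87), of which the first 2 encode proteins that help myosin to fold. Of 9 genes of myoblast fusion and the neuromuscular receptor 6 rose, among them the fusion protein gene MYMK (4.91) and the acetylcholine receptor subunit genes CHRND (3.79) and CHRNA1 (2.90), with MUSK at 2.01. With 1 library left out in turn, 3 to 7 genes of the second list, 3 to 5 chaperones and 5 to 6 genes of the last list rose. TRIM55 missed the adjusted threshold in 5 of 6 omissions, all but that of DMSO replicate 1 (adjusted p = 0.075 to 0.095), and KLHL40 without DMSO replicate 2 or SU5402 replicate 1 or 3 (0.054 to 0.059). NRAP missed it without SU5402 replicate 2 or 3 (0.059 and 0.064). SYNPO2L missed it without DMSO replicate 3 (0.066), and SYNPO2L and CHRND fell below the minimum count without any one SU5402 library. SMYD1 (1.32, 5.35 and 11.8 normalised counts with DMSO), MYMK (2.65, 0 and 11.8) and TRIM55 (25.2, 3.82 and 3.21) did not reach the minimum count in all DMSO libraries. SYNPO2L (5.30, 0 and 2.14) and CHRND (1.32, 6.88 and 1.07) were below it in every DMSO library. The log2 fold changes of these genes thus rest on few DMSO reads. Over the 6 omissions that of SMYD1 ran from 4.12 to 5.35 and that of MYMK from 3.99 to 5.82.

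Genes of calcium handling and the cell membrane moved less uniformly. Their counts stand beside the 6.26% of all genes tested that rose and the 4.54% that fell. Among 12 tested genes of excitation-contraction coupling, CASQ2 (2.63), CACNG1 (2.39) and RYR3 (1.52) rose, and PVALB, the calcium buffer parvalbumin, fell (-2.53). Among 10 tested genes of the costamere and membrane, SGCD (1.43) and POPDC2 (1.30) rose and BVES fell (-1.43). Without any one SU5402 library CACNG1 fell below the minimum count, and POPDC2 missed the adjusted threshold without SU5402 replicate 1 or 3 (adjusted p = 0.055 and 0.050). Among 5 genes of muscle energy supply, FABP3 rose (1.61). AMPD1 (1.18) passed in limma (adjusted p = 0.044) but not in edgeR (0.056) or DESeq2 (0.053), nor in 5 of 6 omissions of a library, all but that of DMSO replicate 2 (0.061 to 0.12). In a list of 13 non-muscle actin cytoskeleton genes 0 passed both thresholds in limma, edgeR or DESeq2, beside 10.8% of all genes tested in limma. Of the 13, 8 had an unadjusted and 6 an adjusted p-value below 0.05 in limma, and the median log2 fold change was -0.20.

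Markers of other cell types moved with the treatment as well. Over all genes tested 6.26% rose and 4.54% fell. Sums of markers are of normalised counts, in which long and abundant genes weigh most, and serve only to set the treatments side by side. All 3 endothelial markers found fell, and their summed level was 11034 to 11352 normalised counts with DMSO and 261 to 302 with SU5402. Of 4 cartilage markers 3 fell, and 1 to 3 did with 1 library left out. The cartilage sum overlapped between treatments (23465 to 32670.5 against 18878 to 23664). Most of it was COL2A1, which passed neither threshold (means 22432 and 20088, limma adjusted p = 0.36). Of 4 ectoderm markers 3 rose (2492 to 3236 against 6922 to 7708), as did 2 of 3 red blood cell markers (2560 to 2939 against 6782 to 10036) and 1 of 3 macrophage markers (235 to 281 against 542 to 577). The 5 limb mesenchyme markers summed to 45926 to 48144 and 40599 to 42673, and 1 of them, MSX1, fell (log2 fold change -1.16), though not without any one library other than SU5402 replicate 1 (limma adjusted p = 0.059 to 0.080). Of 4 glia and neural crest markers 0 passed both thresholds in limma, edgeR or DESeq2 and 2 had an unadjusted p-value below 0.05 (522 to 637 against 842 to 1120.0). Of 7 cardiac markers found 4 were tested and 2 rose, HAND1 (1.58) and RYR2 (1.23), with the sum at 942 to 1258 against 1090 to 1609. HAND1 was no longer called once SU5402 replicate 2 or either of DMSO replicates 2 and 3 was omitted (limma adjusted p = 0.060 to 0.068), and RYR2 without DMSO replicate 1 or 3 or SU5402 replicate 1 or 2 (0.066 to 0.081). The heart regulator NKX2-5 had a mean of 2.31 normalised counts with DMSO and 0 with SU5402, and NPPA had means of 3.16 and 7.11. The part of these shifts in the rise of the sarcomeric genes was not tested.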

How the data were processed

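Poly-A RNA of 6 explant libraries (3 per treatment) was sequenced on an Illumina NovaSeq as paired reads. Per the submitters' processing notes and the study's methods, reads were mapped with HISAT2 (2.0.5) to GRCg6a, counted on genes with featureCounts (1.5.0-p3) and compared with DESeq2 (1.20.0). The strand setting of the counting is not given in the sources used here, so reads of overlapping antisense genes may be included. For each library the authors deposited a signal column of reads per gene divided by a size factor, beside the fold change, p-value and adjusted p-value of their own comparison, which were not used, and a table of FPKM values. The FPKM values the authors deposited share 1 total of 33590126 reads for all libraries. Of the deposited signal values, 100% were whole reads within 0.01 once divided by 1 step per library, and edgeR on these reads called 1853 genes.

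Values with 1 added were tested on the log2 scale by limma 3.58.1 in R 4.3.3, without intensity trend. The test covered the 16324 genes that reached 10 in 3 or more libraries. It was chosen as the main test because the deposited values are normalised. This was not a need, since count tests were also run on the recovered reads. No covariate was used. Genes with no more than 3 reads in each DMSO library were given a bound against 3 reads per library, which covers counting error only. Alternatives were edgeR 4.0.16 with TMM or RLE factors, DESeq2 1.42.0, pseudocounts, filters, FPKM, an intensity trend, a test against 2-fold, the replicate block and each library left out. Omissions for the list genes and the bounds were added after seeing the data. On simulated counts limma called 200 of 200 changed genes and 3 unchanged genes of 16295 tested, with all changes set past the threshold. The changed genes were drawn only from those with higher counts, and all genes had the same dispersion, so recovery of low genes was not tested.

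The name rule, classes and gene lists were chosen with earlier results of these data known. Values per library are given for sarcomeric, smooth muscle and mixed genes past both thresholds and for the gene with the highest mean FPKM in each role, and up to 4 called genes per direction are named from each list. Libraries are replicate experiments of pooled explants. No reference sequence was used here. Some results of these lists and ratios are not reported here.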

Additional observations from a re-analysis of the deposited data

How the results depend on the processing

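Each result was recomputed under 18 other settings. For single genes this gave 796 values over the 46 genes tested, of which 748 kept their direction and side of the threshold, 25 lost the call, 19 gained one and 4 changed sign. A gene below the minimum level of a setting has no value there, and its lost call is not among the 25. This was so for LDB3, MYH7B and MYL3 with FPKM, and for LDB3 and MYL3 with a filter of 50. It also held for LDB3 without any one SU5402 library. The sign changes were of genes near 0 when 1 library was left out. Over the 6 omissions the log2 fold change ran from -0.073 to 0.0012 for TPM1 (above 0 without DMSO replicate 1), from -0.40 to 0.012 for MYH15 and -0.19 to 0.011 for MYH11 (above 0 without DMSO replicate 2), and from -0.62 to 0.10 for TNNI3K (above 0 without SU5402 replicate 1). The count of 0 non-muscle genes past both thresholds held in every setting. Leaving out 1 library in turn gave 16 to 20 genes called higher, 1 called lower, 14 to 18 sarcomeric genes called higher and a sarcomeric median log2 fold change of 1.74 to 1.93. With FPKM and a pseudocount of 1, MYOM2 stayed below 2-fold (log2 fold change -0.80), so 0 genes were called lower, and the sarcomeric median was 1.36, with 903 genes called over the whole table in place of 1763. The mean FPKM of MYOM2 was 2.05 with DMSO and 0.74 with SU5402, so the added 1 was of the size of its values. With FPKM and a pseudocount of 0.1 its log2 fold change was -1.33. The sarcomeric median was then 1.78, and 1313 genes were called. With limma's treat, which tests against a 2-fold change, 454 genes were called, among them 5 of the genes here, all sarcomeric and higher (MYH1D, ACTC1, MYL1, TNNT2 and TNNT3), and 0 lower. Without a filter 4 more genes of the rule passed (MYH1B, MYH1C, MYH1E and MYL2), each without a read in the DMSO libraries. The replicate numbers were not treated as pairs, since the deviations of same-numbered libraries from their group means correlated by 0.04, 0.003 and 0.06, and DMSO replicate 2 correlated most with SU5402 replicate 1. With the replicate block, limma called 1555 genes and 18 of the 19 genes here, losing ACTA1 (adjusted p = 0.066) and adding MYOM3 (0.040), and edgeR called 1824 genes and 18 of the 19, losing LDB3 and adding MYH1F, MYBPC3 and MYOM3. Levels of a few reads per library, as for LDB3, MYOZ1 and the low MYH1 genes, limit what can be seen at this depth.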
